A study of Mus musculus with 4 samples.

Results

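Astrocyte cultures grown from the olfactory bulb and from the hippocampus of newborn mice were compared with each other, gene by gene. The comparison uses 2 of the 4 arrays in the series, those whose titles name these regions, and takes in every probe set that names a single gene, 12393 genes in all. Both cultures came from pups of CD-1, an outbred mouse stock, at postnatal day 3, and no genotype, transgene or drug treatment is named for either. Per the labels, cells dissociated from each region were plated in medium with 10% serum, grown, and shaken at 200 rpm, a step that removes loosely attached cells from the astrocyte layer. RNA was labelled from 2 ug of total RNA and hybridised to 1 array for each region, and the labels number each array as biological replicate 1. Tissue of several pups was pooled, but the design text gives 4 pups in one place and 3 in another. The subventricular zone and ventral mesencephalon cultures, prepared in the same way, supply the other two arrays. Because there was 1 array on each side, no difference below has a replicate check, no p-value was computed, and every value is a size only.

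Astrocytes are the glial cells that clear glutamate and potassium from the space around neurons, carry water through their end-feet, link to each other through gap junctions and supply sterols and metabolic fuel. The hippocampus is cortical tissue folded against the lateral ventricle, with the ciliated ependyma and the choroid plexus close by. The olfactory bulb is wrapped in meninges, and receives the axons of the olfactory nerve together with the ensheathing glia that accompany them. Cultures of this kind keep whatever attached cells grow in serum, among which meningeal fibroblasts and microglia are the usual companions of astrocytes.

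The values are linear signal intensities in arbitrary units. A floor of 122.1, the median over all probe sets and the 4 arrays, stood in for a detection limit, and values below it were raised to it before log2 was taken. A fold against such a value is a lower bound and is written "at least". Where a pair of signals is given as one value against another, the bulb comes first. The arrays had trimmed mean signals of 400.1 each. The hippocampus array had more probe sets above the floor, 11835 against 11144, and a lower 99th percentile, 5619 against 6863. All 18 hybridisation control probe sets read higher on the bulb array, by a median of 1.22-fold. Scaling the arrays by these controls moved the median log2 difference of all genes from -0.02 to -0.30, and moved most list medians toward the hippocampus with it. A list median under that scaling is given beside the main one where it changed sign or moved by more than 1.5 times. Among genes above the floor on both arrays, those in the top 20% by mean signal had a median log2 difference, bulb minus hippocampus, of 0.16 and those in the bottom 20% one of -0.09.

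Of the 12393 genes, 7657 were above the floor on at least 1 of the 2 arrays, and 85.5% of these lay within 2-fold of each other. In the bulb culture 418 genes (5.46%) had a signal at least 2-fold higher, and in the hippocampus culture 694 genes (9.06%), so that 1112 genes (14.5%) were apart. The shares 5.46% and 9.06% over all genes are the background for every list count below. Of the genes apart, 37.6% were higher in the bulb, a share that was 20.3% when the arrays were scaled by the hybridisation controls, with 298 genes higher in the bulb and 1168 in the hippocampus. Folds were lower bounds for 105 of the 418 and for 215 of the 694. At 4-fold or more the counts were 100 and 135, and at 8-fold or more they were 29 and 31. The widest differences were therefore nearly as many in one direction as in the other, and the log2 signals of the genes above the floor had a Pearson correlation of 0.859 across genes, which are not independent replicates.

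**Figure D1:**
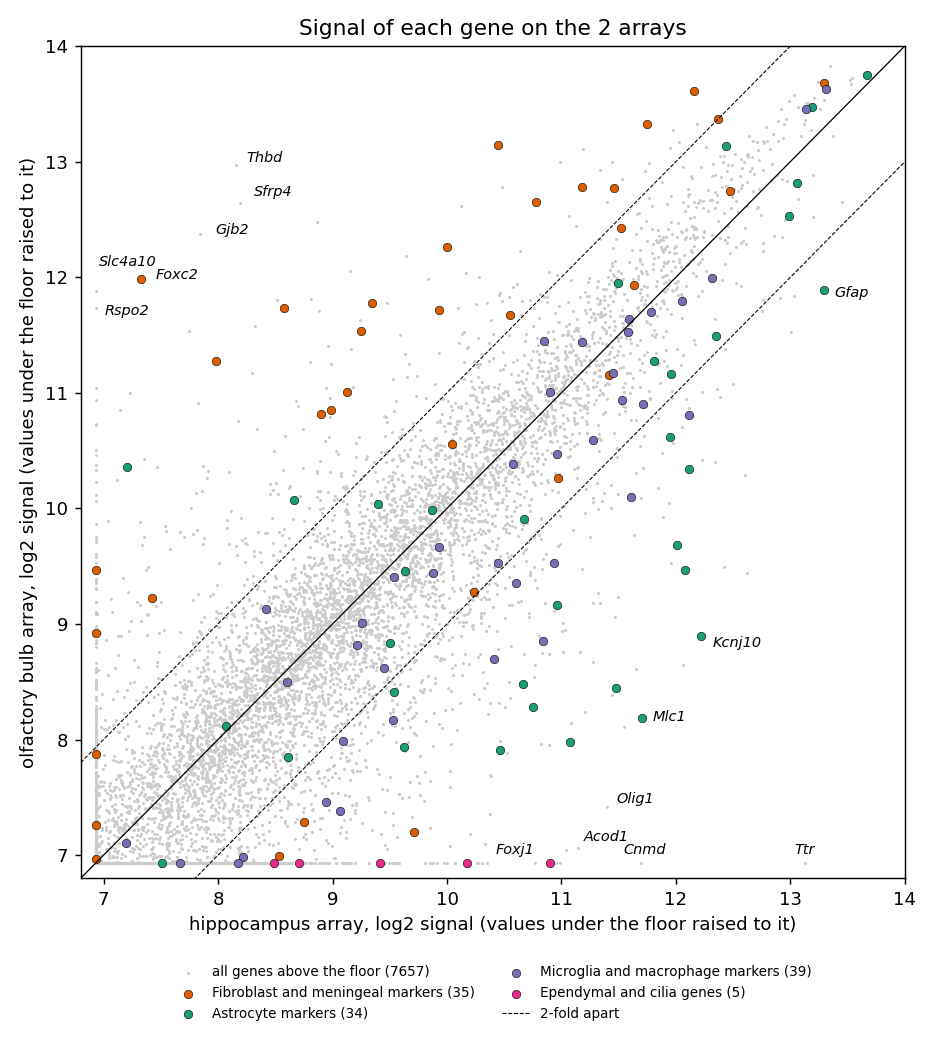
Log2 signal of the 7657 genes above the floor, hippocampus array on the x axis and olfactory bulb array on the y axis, with values under the floor raised to it; coloured points are members of 4 marker lists and dashed lines mark 2-fold. Fibroblast and meningeal markers lie mostly above the upper line, with Foxc2 25.2-fold higher in the bulb, while astrocyte markers such as Mlc1 and Kcnj10 and all 5 ependymal genes lie below the lower line.

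The genes farthest above the hippocampus in the bulb culture encoded membrane, secreted and nuclear proteins. Slc4a10, a sodium-coupled bicarbonate transporter, had a signal of 3774 in the bulb and 113 in the hippocampus (at least 30.9-fold). Thrombomodulin, the cell-surface cofactor that turns thrombin toward protein C, is encoded by Thbd and read 8004 in the bulb and 285 in the hippocampus (28.1-fold). Rspo2, a secreted amplifier of Wnt signalling, read 3409 in the bulb and 111 in the hippocampus (at least 27.9-fold), and the forkhead factor Foxc2, which acts in mesenchyme, read 4041 in the bulb and 160.4 in the hippocampus (25.2-fold). In each of these 4 genes the bulb signal exceeded that of any other region and the hippocampus signal was no higher than that of Thbd. In the ventral mesencephalon Thbd read 5382.5, Foxc2 736, Rspo2 379 and Slc4a10 96.9. Gjb2, a gap junction protein, read 5291 in the bulb and 230.2 in the hippocampus (23-fold), and Sfrp4, a secreted Wnt-binding protein, 6384 in the bulb and 292 in the hippocampus (21.8-fold). The matricellular calcium-binding proteins Smoc1 and Smoc2 read 2109.7 against 115 and 2045 against 149.8 (at least 17.3-fold and 13.7-fold). Both are secreted into basement membranes and the surrounding matrix. In the ventral mesencephalon Smoc2 read 3873.5, above the bulb, and Smoc1 1399. In the subventricular zone they read 44.5 and 30.9.

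Further genes among the 20 widest in this direction included enzymes, matrix proteins and receptors. Ptgis, the prostacyclin synthase, read 2966 in the bulb and 214 in the hippocampus (13.8-fold), and the membrane-bound matrix metalloprotease Mmp16 1844 in the bulb and 142 in the hippocampus (13-fold). Mrc2, an endocytic collagen receptor, read 1414 in the bulb and 104 in the hippocampus (at least 11.6-fold), and Postn, the matrix protein periostin, 2471 in the bulb and 252 in the hippocampus (9.79-fold). Ccn3, a matricellular protein of the CCN family, was already well above the floor in the hippocampus and read 5705 in the bulb and 466 in the hippocampus (12.3-fold), and Igfbp6, an insulin-like growth factor binding protein with a preference for IGF2, 1693 in the bulb and 113 in the hippocampus (at least 13.9-fold). The remaining genes of the 20 were Itgbl1 (at least 16-fold), Clca3a2 (at least 13.9-fold), the myosin heavy chain of fast skeletal muscle Myh1 (at least 11.9-fold), the netrin receptor Unc5c (at least 9.82-fold), and the transcription factors Six2 (at least 10.9-fold) and Tfap2b (at least 10.6-fold). On the other two arrays Myh1 and Clca3a2 were also under the floor, with signals of 0.6 in the ventral mesencephalon and 1.0 in the subventricular zone and of 25.6 in the ventral mesencephalon and 10.3 in the subventricular zone, so their signal stood out in the bulb culture alone.

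In the opposite direction the gene with the largest difference was Ttr, which encodes transthyretin, the thyroid hormone carrier made by the choroid plexus. Its signal was 88.1 in the bulb and 8959.7 in the hippocampus (at least 73.4-fold), and the other arrays read 1.0 in the ventral mesencephalon and 11.2 in the subventricular zone. The other probe sets for Ttr differed by -5.71 and -5.26 on the log2 scale, bulb minus hippocampus. Cnmd, the secreted glycoprotein chondromodulin, read 36.6 in the bulb and 3323 in the hippocampus (at least 27.2-fold), and Acod1, which makes the antimicrobial metabolite itaconate in activated macrophages, 133 in the bulb and 2264 in the hippocampus (17-fold). Both stood above the other regions too, at 72.4 in the ventral mesencephalon and 36.1 in the subventricular zone for Cnmd and 256 in the ventral mesencephalon and 97.2 in the subventricular zone for Acod1. The chemokine Ccl6 read 92.4 in the bulb and 1978 in the hippocampus (at least 16.2-fold), the acute-phase protein Saa3 401 in the bulb and 4279 in the hippocampus (10.7-fold), and the macrophage lectin receptor Clec4e 137 in the bulb and 1289 in the hippocampus (9.42-fold). In the ventral mesencephalon and the subventricular zone, Saa3 read 6533 and 887, so it was highest in the ventral mesencephalon culture.

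A separate set of leading hippocampal genes belonged to astrocytes, their precursors and ciliated cells. The oligodendrocyte lineage factor Olig1, also present in some astrocyte precursors, read 171 in the bulb and 2700.0 in the hippocampus (15.8-fold). The ciliogenesis factor Foxj1 read 74.4 in the bulb and 1909.5 in the hippocampus (at least 15.6-fold), and the axonemal protein gene Rsph1 68.4 in the bulb and 1156 in the hippocampus (at least 9.47-fold). Prom1, a membrane protein of neural stem and ependymal cells, read 111 in the bulb and 1744 in the hippocampus (at least 14.3-fold), and Mlc1, the astrocyte end-foot protein lost in a human leukodystrophy, 292 in the bulb and 3326 in the hippocampus (11.4-fold). In the subventricular zone culture Olig1 read 3805, Foxj1 919, Prom1 1624 and Mlc1 2455, nearer the hippocampus than the bulb, while Rsph1 at 233 was nearer the bulb. Metrn, a secreted glial differentiation factor, read 276 in the bulb and 2985 in the hippocampus (10.8-fold), but its other probe set differed by only -0.09 on the log2 scale. The remaining genes of the 20 were Mia (at least 16.7-fold), the smooth muscle calponin Cnn1 (15.9-fold), the GABA-A receptor subunit Gabrb1 (at least 10.7-fold), Calml4 (at least 10.7-fold), the matricellular Ccn5 (at least 10.4-fold), Igfbp3 (at least 10.1-fold), Itih3 (at least 10-fold) and the potassium channel Kcnj10 (10-fold).

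**Figure D2:**
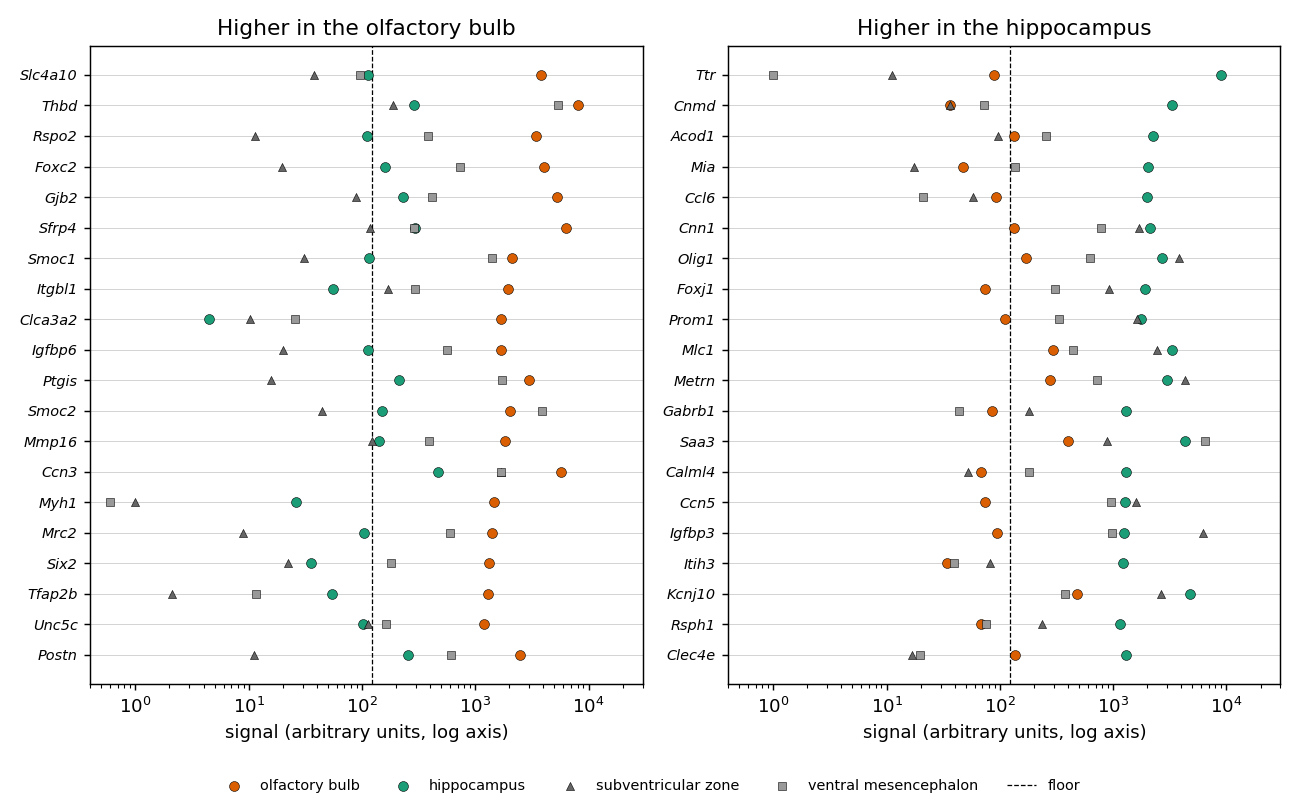
Signal on each of the 4 arrays (log axis, arbitrary units) of the 20 named genes with the largest difference in each direction; the dashed line is the floor of 122.1. On the left the hippocampus signals lie between 4.5 (Clca3a2) and 466 (Ccn3), and on the right Ttr has the widest gap, with 88.1 on the bulb array and 8959.7 on the hippocampus array.

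Astrocyte identity was checked first, on 38 marker genes of the array, of which 34 were above the floor. Several defining markers were well above the floor in both cultures. Gfap, the intermediate filament of astrocytes, read 3800.2 in the bulb and 10027 in the hippocampus (2.64-fold), and the water channel Aqp4 1574 in the bulb and 3943 in the hippocampus (2.5-fold). Slc1a3, the glutamate transporter GLAST, read 706 in the bulb and 4328 in the hippocampus (6.13-fold), and Aldh1l1, a folate enzyme used to mark astrocytes, 311 in the bulb and 1727 in the hippocampus (5.56-fold). Glutamine synthetase, Glul, leaned the other way at 3948 against 2891, and S100b was nearly level at 277 against 269. Slc1a2, the main forebrain glutamate transporter of mature astrocytes, was under the floor on both arrays, as were Hapln1, Ntsr2 and Slc7a10. Of the 34 markers, 15 (44.1%) were at least 2-fold higher in the hippocampus and 2 (5.88%) in the bulb (background 9.06% and 5.46%). The median log2 difference was -0.78 against -0.02 over all genes. The widest were Mlc1, Kcnj10 (476 against 4779), the glycogen-targeting subunit Ppp1r3c (252 against 2161) and the transcription factor Sox2 (348 against 2854). Summed over the list, the signal was 77693 on the bulb array, 114823 on the hippocampus array, 65088 for the ventral mesencephalon and 102616 for the subventricular zone. In RNA from a whole culture, fewer cells of a type and less RNA per cell cannot be told apart.

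The 2 astrocyte markers higher in the bulb were the gap junction protein Gjb6 (1313 in the bulb and 148 in the hippocampus, 8.89-fold), and the bicarbonate transporter Slc4a4 (1076 in the bulb and 406 in the hippocampus, 2.65-fold). Gjb6 was under the floor in the other regions, at 11.8 in the ventral mesencephalon and 13.6 in the subventricular zone. The main astrocyte connexin, Gja1, read 9010.4 against 5549.5, within 2-fold, and Gjb2 was among the widest genes of the whole comparison. Gjb2 and Gjb6 are known from leptomeningeal cells as well as from glia. Of 20 genes for glutamate, potassium and water handling above the floor, 5 (25%) were higher in the bulb and 8 (40%) in the hippocampus. The median log2 difference was 0.18, or -0.18 scaled by the hybridisation controls. The hippocampal ones were led by Gabrb1, Kcnj10, the background potassium channel Kcnk2 (42.9 in the bulb and 1073 in the hippocampus, at least 8.79-fold) and Slc1a3. On the bulb side, besides the connexins and Slc4a4, stood Slc7a11, the cystine-glutamate exchanger (934 in the bulb and 121 in the hippocampus, at least 7.65-fold), and the chloride cotransporter Slc12a2 (1574 in the bulb and 599.7 in the hippocampus, 2.62-fold). The list was therefore split by gene and not moved as a whole.

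Fibroblast and meningeal markers were mostly higher in the bulb. Of 35 above the floor, 21 (60.0%) were at least 2-fold higher in the bulb and 3 in the hippocampus, against 5.46% and 9.06% of all genes, with a median log2 difference of 1.45. The meningeal forkhead factors were among the widest: Foxc2, Foxd1 (3407 in the bulb and 382 in the hippocampus, 8.93-fold) and Foxc1 (3515 in the bulb and 651 in the hippocampus, 5.4-fold). Ptgds, the prostaglandin D synthase of the arachnoid, read 9048 in the bulb and 1395 in the hippocampus (6.49-fold), and the retinoid carrier Crabp2 707 in the bulb and 74.4 in the hippocampus (at least 5.79-fold). The fibrillar collagens were strong in both cultures and higher in the bulb, Col1a1 at 6994 against 2812, Col1a2 at 12488 against 4562 and Col3a1 at 10549 against 5270.5. Decorin, Dcn, read 7039 against 2319, and the mesenchymal cadherin Cdh11 4908 against 1027. Igf2, which the meninges and choroid plexus secrete, read 10268 in the bulb and 3441 in the hippocampus (2.98-fold). The hippocampus had the higher signal for Mfap4 (147 against 840.0), lumican, Lum (128 against 369.9), and Pdgfra (156 against 432). Dpt, Slc22a6, Twist2, Tcf21 and Slc6a13 were under the floor on both arrays.

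The summed signal of this list was 134283 on the bulb array, 59771 on the hippocampus array, 93652 for the ventral mesencephalon and 45526 for the subventricular zone. It therefore ran opposite to the astrocyte sum, which was higher in the hippocampus. How much of any bulb difference below goes with the share of such cells in the culture was not tested.

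**Figure D3:**
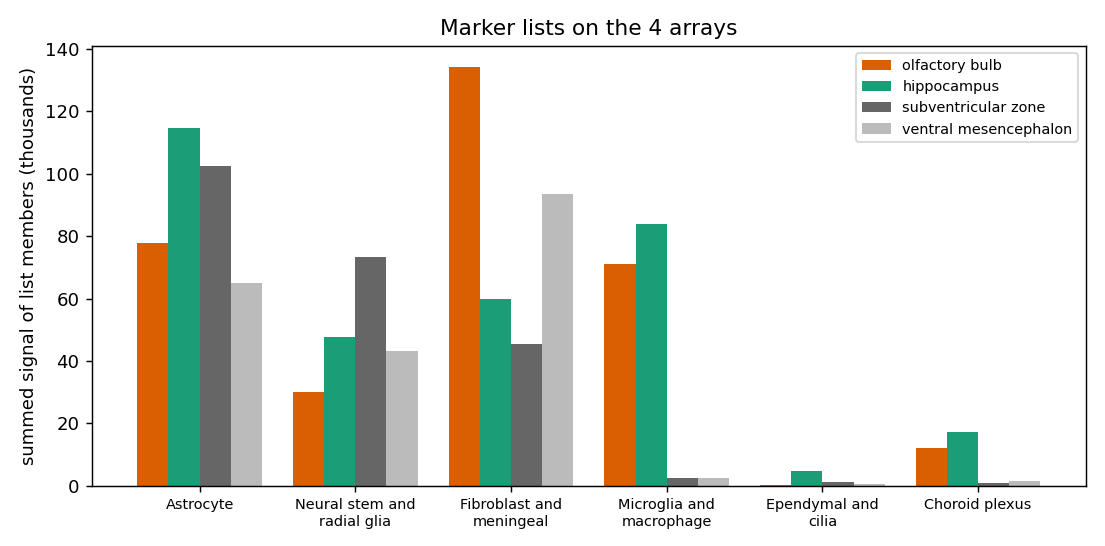
Summed signal (arbitrary units, axis from 0) of the members of 6 marker lists on each of the 4 arrays. The bulb array has the highest sum for fibroblast and meningeal markers, 134283, the hippocampus array the highest for astrocyte markers, 114823, and microglia and macrophage markers are high on both and low on the other two arrays.

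Extracellular matrix and basement membrane genes followed the same direction. Of 51 above the floor, 22 (43.1%) were higher in the bulb and 9 (17.6%) in the hippocampus, with a median log2 difference of 0.72. Besides Ccn3 and Postn, the widest were vitronectin, Vtn (1110.2 in the bulb and 78.2 in the hippocampus, at least 9.09-fold), and nidogen 1, Nid1 (3599.5 in the bulb and 450.3 in the hippocampus, 7.99-fold), which bridges laminin and collagen IV networks. The elastic-fibre proteins Efemp1 (3334 against 473) and Emilin1 (1644 against 324) and the crosslinking enzyme Lox (8828 against 2327) were also at least 2-fold higher. Fibronectin, Fn1, read 9899 against 4026, but its other probe set was on the opposite side by -0.22. The 9 on the hippocampal side included tenascin C, Tnc (311 in the bulb and 1451 in the hippocampus, 4.67-fold), brevican, Bcan (126 against 520.3), the synapse-associated Sparcl1 (449 against 1508), Ccn5 and Col4a5 (583 against 1991). Tnc and Bcan are matrix components that glia themselves deposit around neurons.

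Among matrix proteases and their inhibitors, 5 of 22 (22.7%) were higher in the bulb and 2 (9.09%) in the hippocampus. The background shares were 5.46% and 9.06%, so the hippocampal share was that of all genes. The list median log2 difference was 0.22, or -0.06 scaled by the hybridisation controls. Ctsk, the collagen-degrading cathepsin K, read 1228 in the bulb and 239 in the hippocampus (5.13-fold), and the gelatinase Mmp2 3511 in the bulb and 1301 in the hippocampus (2.7-fold). The other gelatinase, Mmp9, which macrophages release, read 19.7 in the bulb and 1021 in the hippocampus (at least 8.37-fold) and was under the floor on the other arrays. The 2 gelatinases thus differed in opposite directions.

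Transcription factors of the neural crest and of mesenchyme, which build the meninges of the forebrain, were mostly on the bulb side. Of the 12 neural crest and mesenchymal factors above the floor, 8 (66.7%) were higher in the bulb and 2 (16.7%) in the hippocampus. The background shares were 5.46% and 9.06%. The list median log2 difference was 1.84 and ranged from 0 to 1.94 over the alternatives. A further 17 members were under the floor on both arrays and were not counted. No Hox gene of the list was above the floor on either array. Six2 read 1329.5 against 35.6, Tfap2b 1289 against 53.9, Tfap2a 484 against 45.4 and Twist1 485 against 80.2, each under the floor in the hippocampus. Of the arrays compared, these genes passed the floor only through the bulb, so their direction was fixed by that filter. Tfap2b was also under the floor on the other arrays (11.6 in the ventral mesencephalon and 2.1 in the subventricular zone), whereas Twist1 read 692 in the ventral mesencephalon and 252 in the subventricular zone there. The 2 on the hippocampal side were Sox9 (356 against 1623), which astrocytes also express, and Msx1 (124 against 267). Foxc1, Prrx1 and Twist1 are counted among the fibroblast markers too, so the lists overlap.

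Telencephalic factors leaned to the hippocampus. Of 7 above the floor, 4 (57.1%) were higher there and 1 (14.3%) in the bulb (background 9.06% and 5.46%). The median log2 difference of the 7 was -1.02 and ranged from -1.30 to 0 over the alternatives. A further 8 members were under the floor on both arrays. Lhx2, a selector of cortical and hippocampal identity, read 145 in the bulb and 1178 in the hippocampus (8.12-fold), and Pax6 65.4 in the bulb and 547 in the hippocampus (at least 4.48-fold), though the other 4 Pax6 probe sets were under the floor. Fezf2 read 8.4 against 249 and Zbtb20, required for hippocampal field identity, 652 against 1321. Of the arrays compared, Pax6 and Fezf2 passed the floor only through the hippocampus, so their direction was fixed by that filter. In the subventricular zone culture Lhx2 read 2027 and Zbtb20 1709, above the hippocampus, while Pax6 at 162 and Fezf2 at 20.6 were below it. The exception was Nr2f2 (3167 in the bulb and 606 in the hippocampus, 5.23-fold), a nuclear receptor also expressed by mesenchyme and endothelium. Of 5 ventral telencephalic factors, Meis2 was higher in the hippocampus (117 against 639.9) and Zic1 (3259 against 1503) and Zic2 (551 against 108) in the bulb. Of the midbrain and hindbrain factors only Irx3 (950.0 against 132) and Irx5 (308 against 44.5) were above the floor, both higher in the bulb and both also above the floor in the ventral mesencephalon, at 1331 and 349.

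Of 21 neural stem and radial glia markers, 13 (61.9%) were higher in the hippocampus and 2 (9.52%) in the bulb (background 9.06% and 5.46%). The median log2 difference was -1.86, but it was -0.82 with the mean of all probe sets of a gene and -0.19 over all members on the array, since members under the floor on both arrays have a difference of 0. The widest, besides Prom1, Sox2 and Lhx2, was the receptor phosphatase Ptprz1 (301 in the bulb and 2355 in the hippocampus, 7.82-fold). Nestin, Nes, read 274 against 995, the RNA-binding protein Msi1 298 against 1311, brain lipid-binding protein, Fabp7, 1249.7 against 6218, and Cd24a 720.4 against 5492. These are markers of radial glia and of the immature astrocytes that descend from them. The list sum was 30189 on the bulb array, 47814 on the hippocampus array, 43148 for the ventral mesencephalon and 73358 for the subventricular zone. The hippocampus was thus below the subventricular zone, and the bulb was lowest. The 2 exceptions were the Notch effector Hes1 (466 against 129.7) and the growth factor receptor Egfr (1072 against 76.8), whose other probe sets above the floor differed by 0.60 and 1.90.

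All 5 ependymal and cilia genes above the floor were at least 2-fold higher in the hippocampus, and each was under the floor in the bulb. They passed the floor only through the hippocampus array, so their shared direction was fixed by that filter. Over all 8 members on the array the median log2 difference was -1.67. Beside Foxj1 and Rsph1 the 5 were Meig1 (37.9 against 683), the filament protein tektin 1, Tekt1 (15.7 against 419), and the central-pair protein Spag6l (3.0 against 359.5). Motile cilia in the brain belong to ependymal and choroid plexus cells. The list sum was 4742 on the hippocampus array, 291 on the bulb array, 558 for the ventral mesencephalon and 1357 for the subventricular zone. The other 3 of these genes were under the floor in the subventricular zone, at 48.1 for Meig1, 26.8 for Tekt1 and 31.6 for Spag6l.

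Of 9 choroid plexus genes above the floor, 4 were higher in the hippocampus and 1, Igf2, in the bulb. The median log2 difference was -0.65, and it ranged from -2.26 to -0.038 over the alternatives, with -1.41 under quantile normalisation. Beside Ttr and Calml4 the 4 were the folate receptor Folr1 (28.6 against 550.3) and Sostdc1 (3.0 against 343), for which the other probe set differed by -0.58. Of the arrays compared, all 4 passed the floor only through the hippocampus, so their direction was fixed by that filter. The defining genes Slc4a5, Kl, Kcne2, F5, Lmx1a and Otx2 were under the floor on both arrays. Ttr, Calml4 and Folr1 were therefore not accompanied by the plexus factors Otx2 and Lmx1a.

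Microglia and macrophage markers were strong in both cultures. Summed over the list the signal was 70941 on the bulb array and 83768 on the hippocampus array, but 2580 for the ventral mesencephalon and 2589 for the subventricular zone. The receptor Csf1r, on which microglia depend, read 4073 against 5099, and only 90.9 in the ventral mesencephalon and 55.6 in the subventricular zone. The complement gene C1qa read 3325 against 3527 and the microglial adaptor Tyrobp 2940.2 against 3061, each within 2-fold. Lyz1 and Lyz2, near-identical lysozyme genes whose probe sets may not separate them, read 12646 against 10172 and 11249 against 9016. The broadest macrophage markers were therefore close to level between bulb and hippocampus.

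Of 39 such markers above the floor, 12 (30.8%) were nevertheless at least 2-fold higher in the hippocampus and 0 in the bulb, with a median log2 difference of -0.44 (-0.70 scaled by the hybridisation controls). The widest were the inhibitory Fc receptor Fcgr2b (462 in the bulb and 1829 in the hippocampus, 3.96-fold), Cd52 (414 against 1359), the myeloid factor Irf8 (167 against 535, with -0.77 for its other probe set) and the tetraspanin Cd53 (1095 against 3113). The fractalkine receptor Cx3cr1 read 288 against 739 and the endotoxin co-receptor Cd14 1794 against 4436. On the bulb side the largest differences, both within 2-fold, were Trem2 (559 against 342) and Ms4a7 (2787 against 1839). P2ry12, a marker of resting microglia, was under the floor on both arrays, as were Clec7a, Cd86 and Cd163. Of the MHC genes above the floor, 9 in number, 0 were 2-fold apart, and the class II genes H2-Ab1, H2-Aa, H2-Eb1 and H2-Ea with their regulator Ciita and the chaperone Cd74 were under the floor on both arrays.

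**Figure D4:**
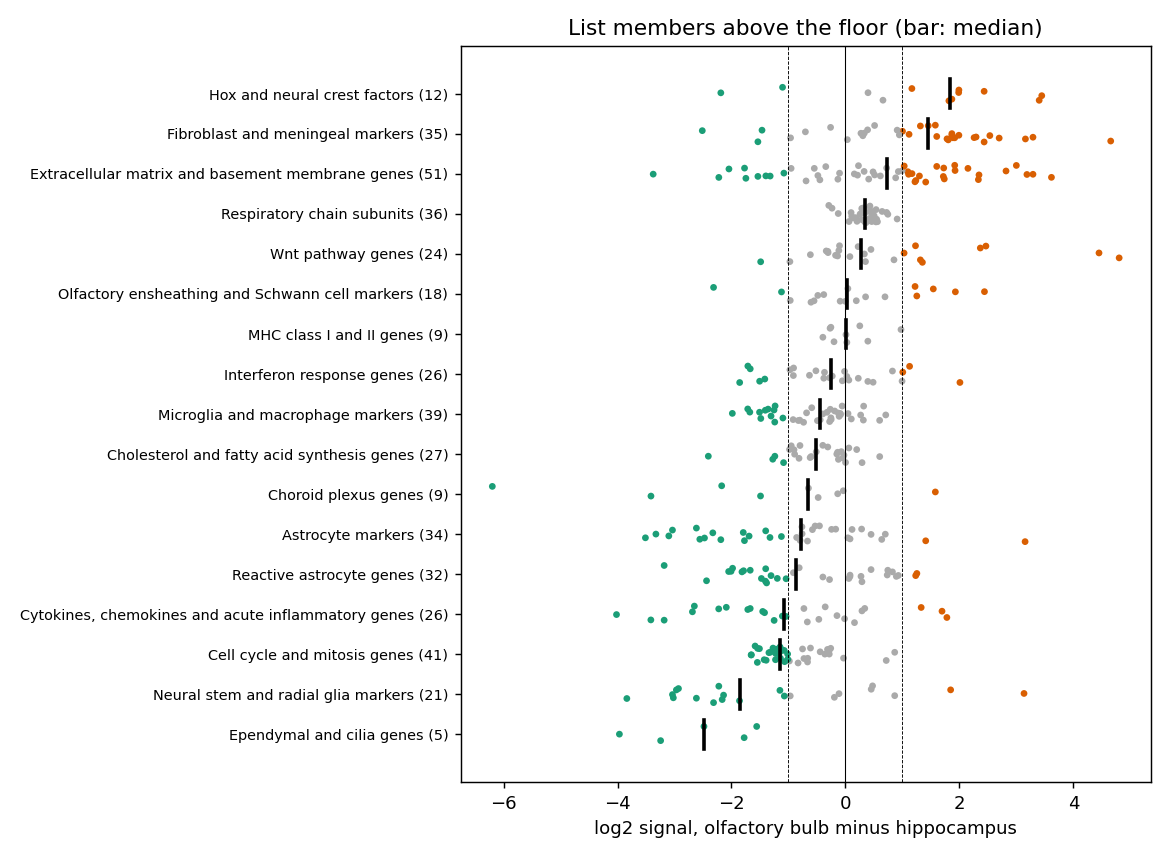
Difference in log2 signal, olfactory bulb minus hippocampus, of each member above the floor (points, number in brackets) of 17 gene lists; black bars are medians, dashed lines mark 2-fold, and points beyond them are coloured. Neural crest, fibroblast and matrix lists have medians of 1.84, 1.45 and 0.72, and the cell cycle, radial glia and ependymal lists medians of -1.14, -1.86 and -2.48.

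Cytokines, chemokines and acute inflammatory genes were higher in the hippocampus in 14 of 26 cases (53.8%) and in the bulb in 3 (11.5%). The median log2 difference was -1.07, or -0.36 under a floor at the 70th percentile, since several of these genes were dim. The iron-binding acute-phase protein Lcn2 read 694 in the bulb and 6298 in the hippocampus (9.07-fold), and the monocyte chemoattractants Ccl12 207 in the bulb and 1331 in the hippocampus (6.43-fold), Ccl2 372 against 1739 and Ccl7 165 against 705. The neutrophil chemokine Cxcl2 read 60.4 against 401, and Tnf 96.8 against 263. The 3 on the bulb side were the homeostatic chemokine Cxcl12 (1773 against 706), the prostaglandin E synthase Ptges (520.2 against 152) and Cx3cl1 (542 against 168, with 0.24 for its other probe set). Il6, Il1a, Il1b, Nos2, Lif and Csf2 were under the floor on both arrays. The cytokine sum was 11510 on the bulb array and 27794 on the hippocampus array, but 76613 for the ventral mesencephalon and 57185 for the subventricular zone, the cultures with the low macrophage marker sums. Lcn2 alone read 10077 in the ventral mesencephalon and 17145 in the subventricular zone in those cultures, whereas Ccl12 and Ccl6 were under the floor there.

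Reactive astrocyte genes were higher in the hippocampus in 15 of 32 cases (46.9%) and in the bulb in 2 (6.25%). The background shares were 9.06% and 5.46%. The list median log2 difference was -0.86 (-0.24 under a floor at the 70th percentile). Serpina3n, a secreted protease inhibitor typical of reactive astrocytes, read 193 in the bulb and 1044 in the hippocampus (5.42-fold), and the membrane protein Emp1 361 in the bulb and 1493 in the hippocampus (4.14-fold). The hyaluronan receptor Cd44 read 1425 against 3773 and pentraxin Ptx3 635 against 1766. The bulb had the higher signal for the heat shock protein Hspb1 (3177 against 1333) and for Sphk1 (287 against 77.8), while Vim, the filament partner of Gfap, was level at 13737 against 12993. Some members, among them Srgn and Cd14, are expressed by macrophages as well. The sum of this list was 55181 on the bulb array and 70307.5 on the hippocampus array. Both were below the sums of 117013 for the ventral mesencephalon and 116190 for the subventricular zone.

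Interferon response genes were found on both sides. Of 26 above the floor, 5 (19.2%) were higher in the hippocampus and 3 (11.5%) in the bulb (background 9.06% and 5.46%). The list median log2 difference was -0.26 (-0.43 scaled by the hybridisation controls). Rsad2 read 138 against 498 (the other probe set above the floor differed by -0.67), Bst2 245 against 803, Cxcl10 114 against 389 and Ifit2 275 against 780.0. The interferon-inducible GTPases Ifi47 (1443 against 359) and Irgm1 (1430.5 against 712) and the adaptor Ifi35 (553 against 253) were higher in the bulb. The list was thus mixed. Bulb and hippocampus were both below the other regions for Rsad2, Bst2, Cxcl10 and Ifit2, Cxcl10 reading 5090.0 in the ventral mesencephalon and 3661 in the subventricular zone and Rsad2 5230.1 in the ventral mesencephalon and 2331 in the subventricular zone.

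Promoter sequence bears on these 3 immune groups, because their genes share known response elements, and the sequences below show what such an element looks like in one gene of each group. They are the 250 bases before the annotated start, from RefSeq on GRCm38.p6, written 5′ to 3′ on the strand of the gene. Capitals mark a match, on either strand, to an NF-kB site (GGG, any 2 bases, TTTCC) in Cxcl2, chr5:90903649-90903898 on the plus strand, to an interferon element (GAAA, any 2 bases, GAAA) in Rsad2, chr12:26456453-26456702 on the minus strand, and to a PU.1 site (GAGGAAGT) in Pf4, a chemokine of platelets and macrophages that read 118 against 289, chr5:90772185-90772434 on the plus strand.
Cxcl2: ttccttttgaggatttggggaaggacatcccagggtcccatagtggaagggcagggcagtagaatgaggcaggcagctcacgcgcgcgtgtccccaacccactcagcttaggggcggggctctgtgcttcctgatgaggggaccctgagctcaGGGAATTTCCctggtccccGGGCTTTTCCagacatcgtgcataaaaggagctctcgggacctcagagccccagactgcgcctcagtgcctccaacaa
Rsad2: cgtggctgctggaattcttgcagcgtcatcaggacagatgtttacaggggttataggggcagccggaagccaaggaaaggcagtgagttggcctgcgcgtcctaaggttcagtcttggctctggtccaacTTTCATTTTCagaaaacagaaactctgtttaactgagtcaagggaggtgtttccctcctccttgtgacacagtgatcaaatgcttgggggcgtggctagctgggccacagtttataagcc
Pf4: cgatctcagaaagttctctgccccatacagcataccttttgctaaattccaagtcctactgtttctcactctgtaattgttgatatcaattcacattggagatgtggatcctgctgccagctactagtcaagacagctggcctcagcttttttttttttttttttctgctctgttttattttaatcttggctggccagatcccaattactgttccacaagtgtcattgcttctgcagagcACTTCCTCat
Cxcl2 has 2 such sites, of which the first begins 97 bases before the start. In windows that also take in the 50 bases after the start, the interferon element was present in 13 of 24 interferon response genes (54.2%) against 3.99% of all RefSeq promoters. The NF-kB site was present in 5 of 21 cytokine genes (23.8%) against 1.89%, and the PU.1 site in 4 of 28 microglia markers (14.3%) against 3.69%. Over all genes higher in the hippocampus the shares were 6.72% (37 of 551), 2.00% and 3.09%, and over all genes higher in the bulb 4.97% (15 of 302), 1.99% and 3.64%. The elements were thus more frequent in the lists than in promoters at large, though most cytokine genes and microglia markers lacked theirs. In the genes higher in either culture they were about as frequent as in promoters at large, with the interferon element somewhat above in both. A match describes the letters in a window and not a bound site.

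Cell cycle genes leaned one way. Of 41 above the floor, 25 (61.0%) were at least 2-fold higher in the hippocampus and 0 in the bulb (background 9.06% and 5.46%). The list median log2 difference was -1.14. Mki67, the proliferation antigen, read 278 against 747, and the mitotic kinase gene Cdk1 428 in the bulb and 1249.8 in the hippocampus (2.92-fold). The centromeric histone Cenpa read 132 against 417, the spindle protein Tpx2 157 against 457, and the replication licensing factor Mcm6 536 against 1256. Only Mcm2 (327 against 199) and the cyclin Ccnd2 (8961 against 4922) had the higher signal in the bulb, both within 2-fold. Many of these genes were dim on the bulb array, and the median was -0.60 with a floor at the 70th percentile. The list sum was lowest for the bulb, at 24123, and 33233 for the hippocampus. It was 33777 for the ventral mesencephalon and 44362 for the subventricular zone, so the hippocampus was not above the other regions. Which cells of the culture carried this signal was not tested.

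Signalling genes were divided by pathway. Of 24 Wnt pathway genes above the floor, 8 (33.3%) were higher in the bulb and 1 (4.17%) in the hippocampus (background 5.46% and 9.06%). The list median log2 difference was 0.28 and became -0.06 scaled by the hybridisation controls. Among ligands and their amplifiers Rspo2 and Wnt6 (629.7 against 122) were on the bulb side, and Wnt7a, which neural cells secrete, on the hippocampal side (39 against 342). Of the receptors, Fzd7 (2461 in the bulb and 446 in the hippocampus, 5.52-fold), Fzd2 (1778 against 698) and Fzd4 (345 against 147) were higher in the bulb. Of the secreted inhibitors, Sfrp4, Dkk3 (792 against 318) and Sfrp1 (1567 against 768) were higher there too. The feedback target Axin2 read 232 against 293 and beta-catenin, Ctnnb1, 6183 against 6702, both within 2-fold. Ligands, receptors and inhibitors thus differed, and the transducer and target did not reach 2-fold.

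Of 31 BMP and TGF-beta pathway genes, 4 (12.9%) were higher in the bulb and 7 (22.6%) in the hippocampus (background 5.46% and 9.06%). The list median log2 difference was 0.00, or -0.27 scaled by the hybridisation controls. The ligands split, Bmp4 (1886 in the bulb and 417 in the hippocampus, 4.53-fold) and Gdf10 (389 against 27.5) being higher in the bulb and Tgfb3 (199 in the bulb and 926 in the hippocampus, 4.65-fold) and Bmp6 (384 against 1272) in the hippocampus. Id4, a BMP target of the astrocyte lineage, read 1300.1 against 4442. Of 18 Notch and Hedgehog genes, 3 (16.7%) were higher in the bulb and 5 (27.8%) in the hippocampus (median 0.18, or -0.13 scaled by the hybridisation controls). The Hedgehog receptor and target Ptch1 read 251 against 630.1, the Notch target Hey1 361 against 874 and the Notch transcription partner Rbpj 517 against 1150.0, all higher in the hippocampus. Jag1, a Notch ligand, read 479 against 64.4, but its other probe set differed by 0.02. The 2 Notch targets Hes1 and Hey1 therefore differed in opposite directions.

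Genes of the IGF family were found on both sides. Higher in the bulb, besides Igf2 and Igfbp6, were the type 2 receptor Igf2r, which clears IGF2 (1005 in the bulb and 276 in the hippocampus, 3.64-fold), the type 1 receptor Igf1r (491 against 229) and the mesenchymal mitogen Pdgfc (1767 in the bulb and 504 in the hippocampus, 3.51-fold). Igfbp3 and Igfbp5 (2950.1 against 8237) were higher in the hippocampus, as was the EGF-family ligand Hbegf (419.7 against 1235). Over the 26 growth factor genes, 6 (23.1%) were higher in the bulb and 4 (15.4%) in the hippocampus (background 5.46% and 9.06%). The list median log2 difference was 0.06 (-0.14 scaled by the hybridisation controls). The binding proteins thus did not share a direction.

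Axon guidance and adhesion genes were higher in the bulb in 11 of 31 cases (35.5%) and in the hippocampus in 3 (9.68%). The background shares were 5.46% and 9.06%. The list median log2 difference was 0.28 (0.53 under quantile normalisation). Of the guidance receptors, Unc5c read 1199 against 102, Plxna2 777 in the bulb and 96.7 in the hippocampus (at least 6.37-fold) and neuropilin 1, Nrp1, 3482 against 1219.7. Secreted cues and ephrins were on the same side, Slit2 at 1446 against 524, Sema3a at 304 against 78.8 and Efnb2 at 2104 against 492. N-cadherin, Cdh2, was higher in the hippocampus (897 against 2189) and Cdh11 in the bulb, so the cadherins of neural and mesenchymal cells differed in opposite directions. The hippocampal side also had Cntn1 (69.2 against 298), whose other probe set differed by -0.44.

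Among metabolic genes, 4 of 27 for cholesterol and fatty acid synthesis (14.8%) were higher in the hippocampus and 0 in the bulb, against 9.06% and 5.46% of all genes, with a median log2 difference of -0.51 (-0.80 scaled by the hybridisation controls). The desaturases Fads2 (432 in the bulb and 2291 in the hippocampus, 5.3-fold) and Fads1 (1124 against 2652) and the sterol enzymes Msmo1 (756 against 1832) and Fdft1 (602 against 1278) made up the 4, while Hmgcs1 (2069.8 against 4002) and Sqle (772 against 1512) lay just short of 2-fold. Lipid carriers and handling genes ran the same way, with 7 of 25 (28.0%) higher in the hippocampus and 0 in the bulb (median -0.34, or -0.67 with that scaling), among them Pltp (1370.4 against 4784) and Cd36 (89.1 against 572). Apoe, the main astrocyte apolipoprotein, was level at 9548 against 8743. Of 28 glycolysis and hypoxia genes, 5 (17.9%) were higher in the hippocampus and 1 in the bulb. Their median was -0.27, or -0.56 scaled by the hybridisation controls and 0.026 under a floor at the 70th percentile. Haem oxygenase, Hmox1, read 401 against 1749, the glucose transporter Slc2a1 430.2 against 1817 and the collagen prolyl hydroxylase P4ha2 1732 against 289, the last being the one on the bulb side.

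Of the 36 respiratory chain subunits above the floor, 0 were 2-fold apart, yet 33 had the higher signal in the bulb, with a median log2 difference of 0.35. Ndufa1 read 5408 against 4216 and Cyc1 3288 against 2595. These are bright genes, and the top 20% of all genes by signal also leaned to the bulb, by 0.16. With quantile normalisation the list median was 0.21 and scaled by the hybridisation controls 0.07. The size of the shift thus depended on the scaling.

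Of 30 antioxidant and detoxification genes, 6 (20%) were higher in the hippocampus and 2 (6.67%) in the bulb (background 9.06% and 5.46%). The bulb share was thus near that of all genes. The list median log2 difference was -0.13, or -0.41 scaled by the hybridisation controls. The metallothioneins Mt2 (3353 against 6892) and Mt3 (3619.6 against 7678) were higher in the hippocampus, and Gstm2 (1117 against 369) and Gstt1 (646 against 254) in the bulb. Of 13 thyroid hormone and retinoid genes, 4 (30.8%) were higher in the bulb and 3 (23.1%) in the hippocampus. The median log2 difference was -0.28. That median was -0.50 scaled by the hybridisation controls and changed sign under several other alternatives. The retinol dehydrogenase Rdh10 (491 in the bulb and 2054 in the hippocampus, 4.18-fold) was on the hippocampal side, and the receptors Rxra (887 in the bulb and 203 in the hippocampus, 4.36-fold) and Rarb (495 against 185) with the carrier Crabp2 on the bulb side. A retinaldehyde-forming enzyme and retinoid receptors thus differed in opposite directions. Of 16 complement genes, 4 (25%) were higher in the hippocampus, among them properdin, Cfp (377 against 1059), and the receptor C5ar1 (205 against 440.2). In the bulb 2 (12.5%) were higher, C2 (484 against 179) and Masp1 (341 against 163). Of 8 S100 genes, S100a8 alone was 2-fold apart (26.8 against 259).

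Immediate early genes were higher in the bulb in 5 of 19 cases (26.3%) and in the hippocampus in 1 (5.26%), Klf2 (323 against 663). The background shares were 5.46% and 9.06%. The list median log2 difference was 0.27 and became -0.01 scaled by the hybridisation controls. Btg2, an antiproliferative early gene, read 2439.6 in the bulb and 506 in the hippocampus (4.82-fold), and Klf4 706 in the bulb and 166 in the hippocampus (4.26-fold). Fos (4034 against 2852) and Egr1 (6292 against 3552), the usual markers of recent stimulation, were within 2-fold. Of 31 unfolded protein and heat shock genes, Hspb1 alone was 2-fold apart, so stress chaperones were close to level.

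Olfactory ensheathing glia are a cell type that only the bulb would supply, so their markers were examined. Of 18 ensheathing and Schwann cell markers above the floor, 5 (27.8%) were higher in the bulb and 2 (11.1%) in the hippocampus. The background shares were 5.46% and 9.06%. The list median log2 difference was 0.02, or -0.31 scaled by the hybridisation controls. The low-affinity neurotrophin receptor Ngfr, a defining marker, read 662 in the bulb and 9.8 in the hippocampus (at least 5.42-fold), although its other 2 probe sets were under the floor, and the glial factor Sox10 read 355 against 31.6, with 0.16 for another probe set. L1cam (465 against 54.8), Gfra3 (285 against 6.1) and Egr2 (291 against 89.1) completed the 5, and each was under the floor in the hippocampus. Of the arrays compared, all 5 passed the floor only through the bulb, so their direction was fixed by that filter. Egr2 was not particular to the bulb, reading 1026 in the ventral mesencephalon and 287.5 in the subventricular zone. It is also counted among the immediate early genes. The radial glia and ensheathing marker Fabp7 was higher in the hippocampus, and so was Npy (135 against 295). Thus Ngfr, Sox10, L1cam and Gfra3, on the probe set used, were above the floor in the bulb culture at modest signals and under it in the hippocampus. Of the 18 markers, 9 had the higher signal in each culture, and a further 6 were under the floor on both arrays. The direction of the list median depended on the scaling.

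Of 8 oligodendrocyte markers, 3 were higher in each culture: Olig1, Cnp (1489 against 3286) and Pdgfra in the hippocampus, and Cldn11 (3052 in the bulb and 319.8 in the hippocampus, 9.54-fold), Sox10 and Aspa (302 against 36.4) in the bulb. Cldn11 also forms tight junctions in the arachnoid. Of 6 neuronal markers, Uchl1 (215 against 669) and Stmn2 (218 against 514) were higher in the hippocampus and Reln, the secreted guidance protein of mitral and Cajal-Retzius cells, in the bulb (542 against 25.7). Of 11 pericyte and smooth muscle genes, Rgs5 (655 against 74.3), Actg2 (875 against 220.2) and Tpm2 (3866 against 1529.7, with -0.37 for another probe set) were higher in the bulb and Cnn1 in the hippocampus, while Acta2 was level at 9878 against 9301. Of the endothelial markers 3 were above the floor and 0 were 2-fold apart.

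Sex-linked transcripts differed as well. Xist, expressed from the inactive X chromosome of females, read 1109.5 against 606, which is within 2-fold for the brightest probe set and was 1.56 and 0.82 on the log2 scale, bulb minus hippocampus, for the others. It read 18.3 in the ventral mesencephalon and 11 in the subventricular zone. Eif2s3y, on the Y chromosome, read 18.7 in the bulb and 271 in the hippocampus (at least 2.22-fold), beside 252 in the ventral mesencephalon and 219 in the subventricular zone, and Kdm5d, also Y-linked, 23.8 against 154. The bulb array thus had Xist above the floor and both Y-linked genes under it, the hippocampus array had all 3 above it, and the subventricular zone and ventral mesencephalon had Xist under it. Whether the sex of the pups moved with any other difference was not tested.

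The other regions showed which culture stood apart for each gene. Of the 418 genes higher in the bulb, 193 had both other regions nearer the hippocampus, 61 had both nearer the bulb, and 164 were split. Of the split genes, the ventral mesencephalon was nearer the bulb in 154 and the subventricular zone in 10. In 149 genes the bulb was at least 2-fold above all 3 other cultures. Of the 694 genes higher in the hippocampus, 266 had both others nearer the bulb, 170 had both nearer the hippocampus, and 258 were split, the subventricular zone being nearer the hippocampus in 223 and the ventral mesencephalon in 35. In 199 the hippocampus was at least 2-fold above all 3 others, and in 124 the bulb at least 2-fold below all 3. Where the regions split, the subventricular zone thus mostly sided with the hippocampus and the ventral mesencephalon with the bulb. Among the 6 pairs of regions, bulb and hippocampus were the third widest, with 14.5% of genes apart, against 11.3% for the closest pair and 18.4% for the widest, subventricular zone and bulb.

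Agreement between probe sets of one gene was the only measure of technical error available. Over 2158 genes with 2 probe sets above the floor on both arrays, the difference between their log2 differences had a median-based SD of 0.34 (plain SD 0.44), or 0.24 for each probe set. The 2-fold limit is 4.15 times that last value, which covers the probes and not the culture, the pups or the hybridisation. Only the brightest other probe set of a gene was compared next, and any further ones were not counted. Of the genes higher in the bulb, 169 had such a probe set above the floor. In 163 it lay on the same side, in 103 by at least 2-fold. Of the genes higher in the hippocampus, this held for 228 of 235, and for 121 by at least 2-fold. The median sizes were 1.17 for the other probe set against 1.44 for the chosen one in the bulb direction, and 1.03 against 1.34 in the hippocampal direction. The genes whose brightest other probe set was on the opposite side were Cavin1, Fli1, Fn1, Mtap, Pja2 and Tug1 in the bulb direction and Arhgap12, Cdip1, Chd4, Evi5, Nectin3, Pdlim7 and Sfpq in the hippocampal direction. Genes with only a further probe set on the opposite side, such as Tpm2, are not among them.

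**Figure D5:**
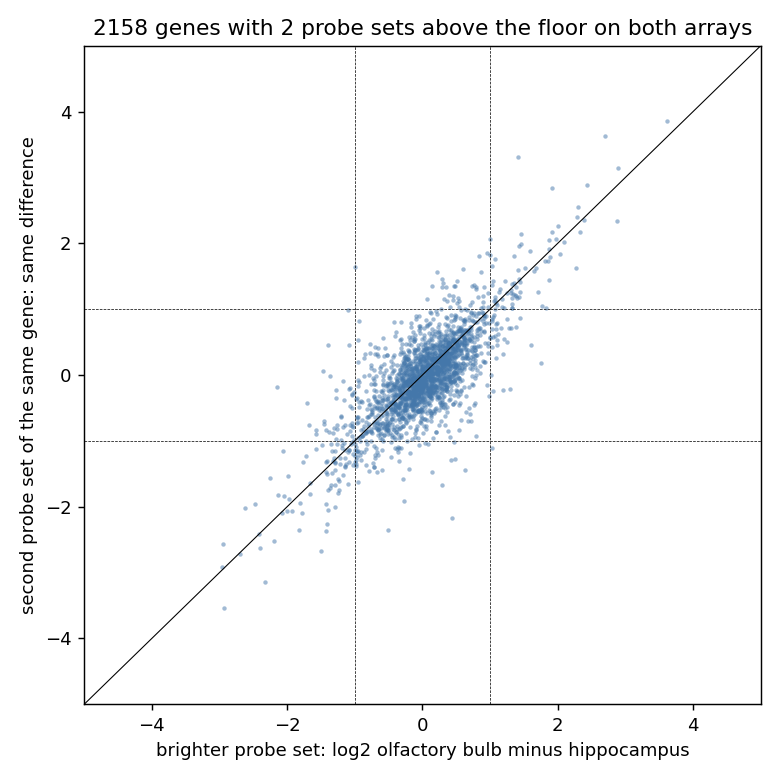
For 2158 genes with 2 probe sets above the floor on both arrays, the log2 difference, olfactory bulb minus hippocampus, of the brighter probe set (x axis) against that of the other (y axis); dashed lines mark 2-fold and the diagonal marks equality. Points follow the diagonal with a median-based SD of 0.34 of the difference between the 2.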

How the data were processed

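Signal intensities of 22690 probe sets on each of 4 arrays were used as the authors deposited them. Per the submitters' processing notes they were made with GCOS 1.4. Which of its algorithms and scaling factors were used is not given in the sources used here. Detection calls were not used here. Probe sets were named by the platform's annotation: 20380 probe sets named 1 gene (20351 of them found in a RefSeq table by gene identifier), 691 several and 1555 none, beside 64 control probe sets. A gene was represented by its probe set of highest mean log2 signal over the 4 arrays; 4956 genes had several. Differences were taken as log2 of floored intensities, and a gene was counted as apart at 2-fold or more (1 on the log2 scale) if above the floor on at least 1 of the 2 arrays. Gene lists (39, with 1013 distinct genes on the array and 726 above the floor) were described by counts and medians, without a test. The members and lists were chosen with earlier results of these data known. Genes named are the 20 widest in each direction, up to 4 members of each list in each direction, and fixed astrocyte and sex-linked genes; other members were added once their values were known. The number of arrays limits the precision. The scripts (Python 3.11.15, pandas 2.3.3, numpy 2.4.6, matplotlib 3.10.9) were tested on simulated data. Alternatives were another floor, pseudocount, scaling, probe set rule, fold limit and list summary.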

Additional observations from a re-analysis of the deposited data

How the results depend on the processing

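No paired analysis was possible because each region has 1 array and the labels share only the replicate number 1. Of 200 named genes above the floor, 191 were at least 2-fold apart, and under 9 alternatives 0 of 1773 values reversed, while 107 values, of 69 genes, lay under 2-fold. Most of these genes were named for being 2-fold apart. Another floor, pseudocount or scaling could hardly turn the sign of such a difference, so the 0 is a weak check. With the floor at the 70th percentile (360.4) there were 250 genes higher in the bulb and 323 in the hippocampus, and the list medians were -1.31 for radial glia, -1.30 for ependymal, -0.36 for cytokine, -0.24 for reactive astrocyte and -0.60 for cell cycle genes. Signs changed there for glycolysis (0.026), thyroid and retinoid (0.090), sex chromosome genes (0.87), and for the MHC and glutamate handling lists. With the floor at the 30th percentile (25.2) 1233 genes were higher in the hippocampus, and medians were -1.40 for radial glia and -4.05 for ependymal genes, with sign changes for midbrain factors (-0.080), Wnt (-0.10), glutamate handling (-0.46) and Notch and Hedgehog genes (-0.21) and for the MHC list. With log2(signal + 32) and no floor the ependymal median was -3.48. Scaled by the hybridisation controls, 1168 genes were higher in the hippocampus, and medians were -1.05 for astrocyte, -0.70 for microglia, 1.17 for fibroblast, -1.43 for cytokine, -1.19 for reactive astrocyte and -1.43 for cell cycle genes, while these medians turned from positive to negative: Wnt (-0.062), immediate early (-0.011), ensheathing (-0.31), ventral telencephalic (-0.17), MHC (-0.27), glutamate handling (-0.18), matrix protease (-0.062), growth factor (-0.14), BMP (-0.27), Notch and Hedgehog (-0.13) and heat shock genes (-0.13). The mean of all probe sets gave -0.82 for radial glia, -0.52 for reactive astrocyte and -0.90 for cell cycle genes, and the median of probe sets above the floor -1.14 for radial glia. A 3-fold limit left 168 and 251 genes. Over all members on the array the medians were 1.06 for fibroblast, -0.19 for radial glia, -1.67 for ependymal and -0.25 for cytokine genes, and means over members were 1.16 for fibroblast and -1.23 for radial glia genes. Leaving out genes of several lists gave -1.39 for reactive astrocyte genes. The thyroid and retinoid median was also reversed without the less specific probe sets (0.18), without genes of several lists (0.33) and as a mean (0.12). The cause of these shifts was not tested, other than that a higher floor shortens every difference against a dim signal. Quantile normalisation moved the medians of the choroid plexus list to -1.41, the axon guidance list to 0.53 and the oligodendrocyte list to -0.24. The X-box core was added to the promoter motifs after the values were seen. Leaving out a replicate was not possible with 1 array a side, and signals near the floor, where 320 of the 1112 folds are lower bounds, set the depth to which these arrays can be read.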

Other observations

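Of the 2246 probe sets with several gene names or none, 917 were above the floor on at least 1 of the 2 arrays. Of these, 36 were at least 2-fold higher in the bulb and 80 in the hippocampus, and they were left out of every count. Among the genes counted as apart, 0 in the bulb direction and 8 in the hippocampal direction had clone-type names, and these are not named. In 39 genes the hippocampus was at least 2-fold below all 3 other cultures, the smallest of the 4 sets of genes for which 1 of the 2 cultures stood alone.

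The X-box core GTTGCCATG, bound by the RFX factors of ciliated cells, was searched in the same promoter windows. It was in 0 of the 3 ependymal and cilia genes that had a window, in 1.27% of the genes higher in the hippocampus, in 0.662% of those higher in the bulb and in 0.877% of all RefSeq promoters.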
